A study of Mus musculus with 35 samples.

Results

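Genes widely used as markers of cellular senescence were followed through skin injury by radiation. The 10 genes were Cdkn2a, Cdkn2b, Lmnb1, Gdf15, Il6, Plaur, Igfbp3, Igfbp5, Igfbp7 and Glb1. They were picked by name, with earlier results of these data known, and each matched 1 of the 36106 genes of the deposited count table. The 35 libraries are bulk RNA sequencing of skin biopsies, and the 19 mice were females of the inbred strain C57BL/6J, 10 weeks old. In 16 of the mice the skin of the left flank had received 25 Gy (420 seconds at a rate of 3.6 Gy/min) and was then shaved. Per the labels, 4 radiated and 4 control samples were taken at each of weeks 1, 2, 3 and 4. The body site of the control skin is not given, so radiation and site cannot be told apart in radiated against control skin. Control and radiated samples that share a week and a number were treated as 1 radiated mouse, since there are fewer mice than samples. A further 3 samples came from sham mice, which received no radiation, and they have no week.

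Senescence is a lasting exit from the cell cycle that follows DNA damage, telomere loss or oncogene activity. Both Ink4 genes, Cdkn2a and Cdkn2b, encode inhibitors of the cyclin D kinases CDK4 and CDK6, and so keep the retinoblastoma protein active. Loss of lamin B1, a filament protein of the nuclear envelope encoded by Lmnb1, is a common sign of the senescent nucleus. Senescent cells also secrete cytokines, proteases and growth factor binding proteins, among them Il6, Gdf15 and the Igfbp proteins. They display the urokinase receptor, encoded by Plaur, and they stain for the lysosomal galactosidase encoded by Glb1. In skin, many of these genes are also used by keratinocytes, fibroblasts and leukocytes during wound repair.

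Library totals ran from 17362853 to 28487885 counts. Levels are given in CPM, counts per 1000000 after scaling by trimmed mean of M values over all libraries. Taken as a floor, 3 counts correspond to 0.114 to 0.175 CPM. Fitted differences are on a log2 scale, with a standard error (SE) and an adjusted p from edgeR's quasi-likelihood test, corrected over every gene tested in that comparison. A gene is said to rise or fall where that adjusted p is under 0.05. Keratin genes of epidermis were present in all 35 libraries: Krt5 was at 1966 CPM or more and Krt10 at 82.8 CPM or more. Libraries differed in hair follicle genes: the summed level of 6 such genes was 2074, 27573 and 33071 CPM in the sham libraries, and between 9.87 and 6626 CPM in the others. Samples are bulk skin, so fewer cells of a type and less RNA per cell cannot be told apart.

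Per kilobase of exon, the median over the 35 libraries was 132 CPM for Igfbp5, 57.1 for Igfbp7 and 47.5 for Igfbp3. On the same scale it was 10.0 for Lmnb1, 3.93 for Plaur, 2.61 for Glb1 and 1.60 for Cdkn2b. Lowest were Il6 at 0.682, Gdf15 at 0.128 and Cdkn2a at 0.0373 CPM per kilobase. The 3 binding proteins of insulin-like growth factor were thus the most abundant of the 10, and Cdkn2a lay at the edge of detection.

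Promoters of Il6, Plaur and Cdkn2b are printed because these genes moved in opposite directions after radiation. The sequences are the 250 bases before the RefSeq start site in build GRCm38.p6, written 5′ to 3′ on the gene's strand. Capitals mark matches to 3 short motifs searched on both strands: TGANTCA, bound by AP-1, GGGAN joined to TTTCC, bound by NF-kB, and TGACGTCA, bound by CREB and related factors. The windows are chr5:30012864-30013113 on the plus strand for Il6, chr7:24462233-24462482 on the plus strand for Plaur and chr4:89311033-89311282 on the minus strand for Cdkn2b.
Il6: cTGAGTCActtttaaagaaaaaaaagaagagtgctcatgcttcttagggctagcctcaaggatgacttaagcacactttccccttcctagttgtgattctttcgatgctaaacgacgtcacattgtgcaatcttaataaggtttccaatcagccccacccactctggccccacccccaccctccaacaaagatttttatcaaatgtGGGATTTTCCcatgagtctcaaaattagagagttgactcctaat
Plaur: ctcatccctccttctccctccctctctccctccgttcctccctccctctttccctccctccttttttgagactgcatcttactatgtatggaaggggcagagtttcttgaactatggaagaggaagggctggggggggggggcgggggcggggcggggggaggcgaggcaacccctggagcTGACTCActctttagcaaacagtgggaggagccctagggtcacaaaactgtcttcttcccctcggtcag
Cdkn2b: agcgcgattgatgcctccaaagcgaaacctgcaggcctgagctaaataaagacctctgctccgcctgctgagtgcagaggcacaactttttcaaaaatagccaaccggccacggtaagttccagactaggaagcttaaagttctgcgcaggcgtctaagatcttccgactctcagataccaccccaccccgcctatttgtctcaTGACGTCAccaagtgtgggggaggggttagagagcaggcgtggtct

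The Il6 window held an AP-1 match that begins 249 bases before the start and an NF-kB match that begins 44 bases before it. In Plaur, 1 AP-1 match began 69 bases upstream. The Cdkn2b window held neither of those letters and had 1 TGACGTCA match, 46 bases upstream. Glb1 had 1 AP-1 match, 53 bases upstream. The windows of Cdkn2a, Gdf15, Igfbp3, Igfbp5 and Igfbp7 held none of the 3 motifs. Of 32851 promoter windows of this length, 6.75% held TGANTCA, 0.356% held the NF-kB motif and 1.55% held TGACGTCA. Of the 10 genes, 9 were matched in the promoter table. A match is only a run of letters in this window.

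The Ink4 genes lay in opposite directions at week 4. Cdkn2a (ENSMUSG00000044303, build GRCm38, chromosome 4, 89274471 to 89294653, minus strand) encodes p16Ink4a and, from another first exon, p19Arf, an activator of p53. These transcripts were summed in the gene-level counts and cannot be told apart here. All 35 libraries together held 71 Cdkn2a counts. The count was 0 in 15 libraries, 3 or fewer in 28, and 13 at most. In radiated skin of week 4 the counts were 2, 6, 11 and 13, against 0, 2, 0 and 0 in control skin. The highest libraries of the series were thus 2 of the radiated week 4 samples, while the lowest of that group matched the highest control at 2 counts each. Summed, that is 32 counts against 2, a ratio of rates of 15.2 with a 95% interval of 3.89 to 131 that covers counting error only. At week 3 the order was the opposite, with 3 counts in radiated and 11 in control skin, a ratio of 0.256 (0.0459 to 0.969). Weeks 1 and 2 had 5 against 2 and 7 against 2 counts. The 3 sham libraries held 1, 5 and 1 counts.

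Cdkn2a was below the filter on low counts in every comparison and so was not tested in the main analysis. Without that filter, edgeR gave a log2 fold change of 3.64 (SE 1.11) at week 4, with an adjusted p of 0.0254. The same fit gave an adjusted p of 0.421 at week 3, and of 0.278 for week 4 against sham skin. At this depth, then, a Cdkn2a difference was detectable at week 4 against control skin only in the unfiltered fit.

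Cdkn2b (ENSMUSG00000073802, chromosome 4, 89306299 to 89311039, minus strand) encodes p15Ink4b and lies next to Cdkn2a. Its level in radiated skin of week 4 was 2.01, 1.75, 1.59 and 0.6246 CPM. Control skin of that week had 2.75, 3.05, 2.86 and 3.46 CPM. Every radiated library was below every control library, and the gene fell by 1.01 on the log2 scale (SE 0.318, adjusted p = 0.0246). With the mouse as a block the adjusted p was 0.0549 (log2 -1.08), and in a single fit of all 35 libraries 0.0742 (-1.02). It was 0.0520 without control replicate 2 of week 4 and 0.0667 without control replicate 4, so the call was lost in these fits. At week 3 radiated skin had 0.320, 1.68, 1.49 and 2.39 CPM against 1.98, 1.60, 2.28 and 2.23, which overlap (log2 -0.43, adjusted p = 0.539). That difference was -0.10 without radiated replicate 1 of week 3 and -0.76 without radiated replicate 4. Over the 9 groups the means ran from 3.12 ± 0.889 CPM (SD, n = 4) in control skin of week 1 to 1.47 ± 0.861 in radiated skin of week 3, and no 2 neighbours in that order differed by more than the larger of their SDs. Sham skin had 2.69, 3.68 and 1.498 CPM.

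Over all genes, edgeR called 13.6% higher and 13.6% lower at week 3, and 24.2% each way at week 4, and the counts of related genes given here and in later paragraphs are to be read against these shares. Of 20 cyclin-dependent kinase inhibitors, cyclins and retinoblastoma genes, all tested, 5 were higher and 3 lower in radiated skin at week 3. At week 4, 7 were higher and 7 lower, with a median log2 fold change of 0.13 against 0.02 over all genes. Ccne1, a cyclin E that drives entry into S phase, rose by 1.91 at week 4 (SE 0.294, adjusted p = 0.000529), and E2f1, a transcription factor of the same step, by 1.03. Ccne2, the other cyclin E gene, fell by 0.47 (SE 0.163, adjusted p = 0.0358). Cdkn1b, the inhibitor p27, fell by 0.995 (SE 0.0947, adjusted p = 2.9e-05). Cdkn1a, the p53 target p21, fell by 0.32 at week 4 (adjusted p = 0.0291) and had a log2 fold change of -0.33 at week 3 (adjusted p = 0.339); it was chosen after its values were seen.

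**Figure D1:**
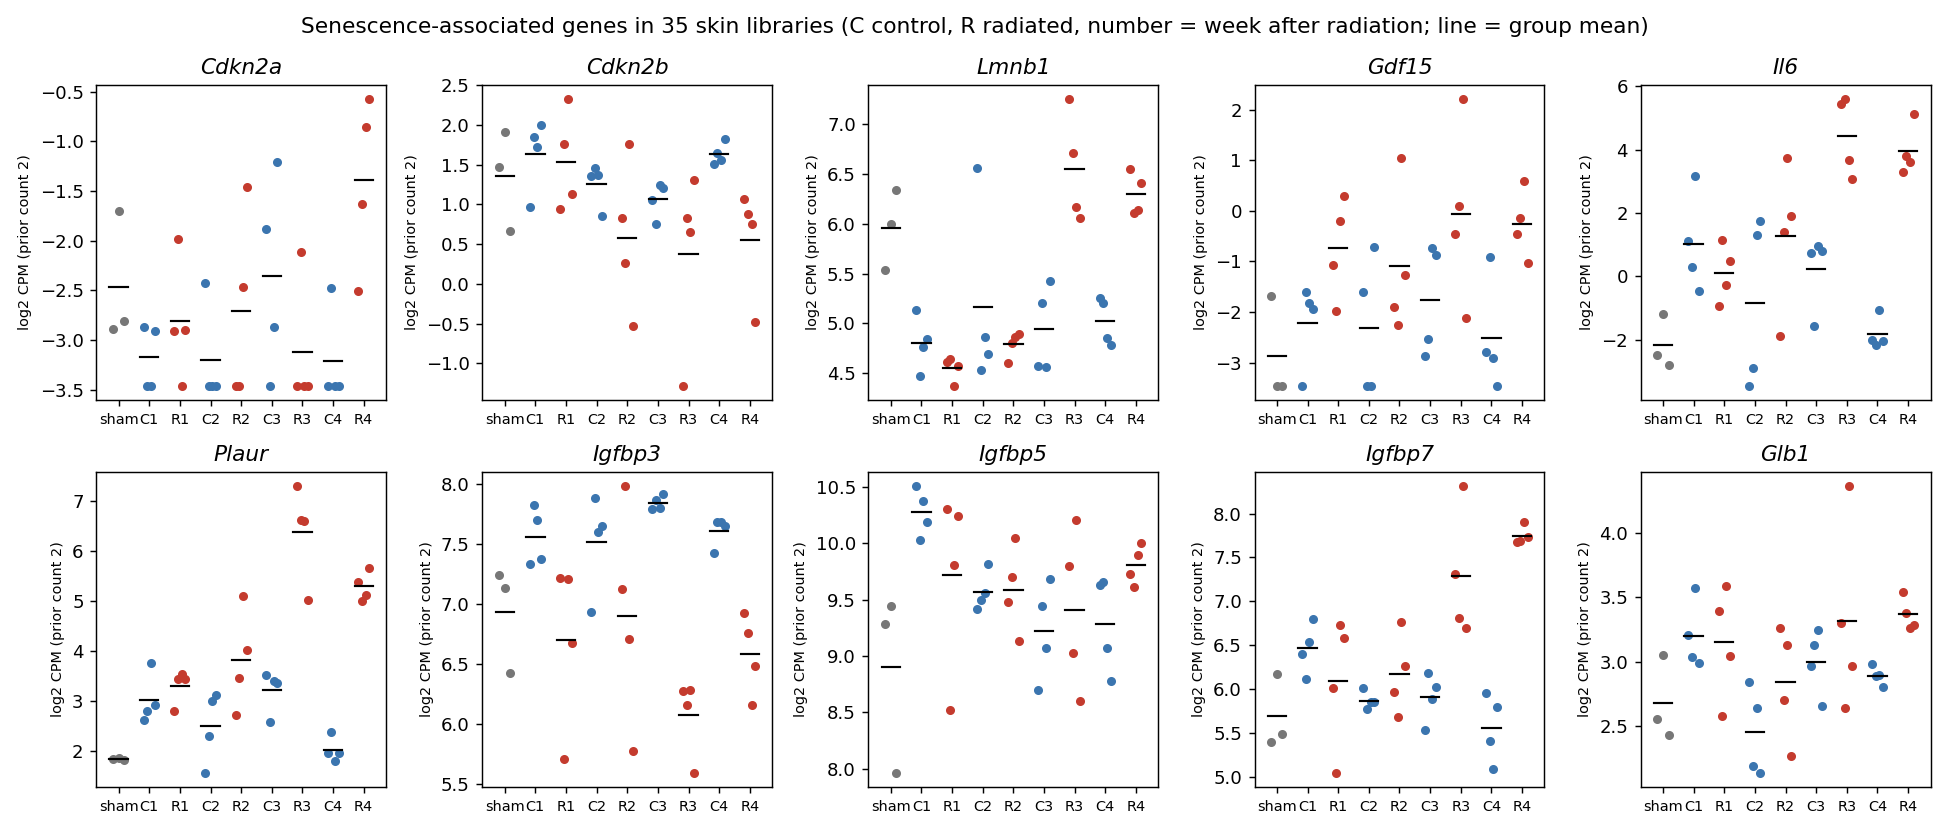
Level of each of the 10 genes in every library, as log2 CPM with a prior count of 2 on the vertical axes, by group on the horizontal axes (sham, then control C and radiated R skin of weeks 1 to 4), with bars at group means. Il6, Plaur, Lmnb1 and Igfbp7 are highest in radiated skin of weeks 3 and 4, and Igfbp3 and Cdkn2b have their lowest means there.

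Lmnb1 (ENSMUSG00000024590, chromosome 18, 56707813 to 56753424, plus strand) rose in radiated skin of weeks 3 and 4. Radiated skin of week 3 had 152, 105, 71.9 and 66.6 CPM, and control skin of that week had 23.7, 36.7, 23.6 and 42.8 CPM. At week 4 the values were 93.7, 68.8, 70.6 and 84.7 against 38.1, 36.9, 28.8 and 27.4 CPM. In both weeks every radiated library exceeded every control library. The rise was 1.67 at week 3 (SE 0.310, adjusted p = 0.00514) and 1.29 at week 4 (SE 0.145, adjusted p = 7.78e-05) on the log2 scale.

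Before that, the Lmnb1 difference was small. At week 1 radiated skin had 24.4, 24.8, 20.6 and 23.7 CPM against 34.9, 22.1, 27.1 and 28.7, and the fitted difference was -0.26 (SE 0.168, adjusted p = 0.480). At week 2 the values were 24.1, 27.8, 28.9 and 29.6 against 94.1, 23.1, 28.9 and 25.8 CPM. The week 2 difference of -0.64 (SE 0.414, adjusted p = 0.529) rested on control replicate 1 of that week, at 94.1 CPM: without that library it was 0.09 (adjusted p = 0.856). The same library had 1024 CPM summed over 12 proliferation genes, against 202 to 288 CPM in the other 3 controls of the week, and 2573 CPM over the hair follicle genes, against 9.87 to 113. What part these genes had in its Lmnb1 level was not tested.

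Sham skin also had high Lmnb1, at 46.3, 63.9 and 80.7 CPM. Against it, Lmnb1 was lower in radiated skin of week 1 (log2 -1.46, SE 0.215, adjusted p = 0.0123) and week 2 (-1.21, adjusted p = 0.0186), and lower in control skin of week 1 (-1.18, adjusted p = 0.0345), week 3 (-1.02, adjusted p = 0.0418) and week 4 (-0.97, adjusted p = 0.0429). Radiated skin of week 3 (0.69, adjusted p = 0.173) and week 4 (0.37, adjusted p = 0.201) did not differ from sham skin by this test. All of these comparisons share the same 3 sham libraries. Each of the 5 lower calls was lost without sham replicate 3, with adjusted p of 0.0608 and 0.0916 for radiated skin of weeks 1 and 2, and 0.0924, 0.138 and 0.123 for control skin of weeks 1, 3 and 4. Loss of the call followed in some comparisons from leaving out other libraries too: sham replicate 2, radiated week 1 replicates 3 and 4, radiated week 2 replicate 3, control week 1 replicates 2, 3 and 4, control week 3 replicates 1, 2 and 3, and any control of week 4. Without sham replicate 2, adjusted p was 0.0747 for radiated skin of week 2 and 0.0734, 0.0976 and 0.0914 for control skin of weeks 1, 3 and 4. Without a library of the other group it lay between 0.0558 and 0.142 where the call was lost. The direction held in each of these fits. Lower Lmnb1 than in sham skin was thus measured in both radiated and control skin. For control skin of week 2 the difference was -0.58 (adjusted p = 0.533), or -1.30 (adjusted p = 0.0147) without its replicate 1.

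Proliferation genes were higher in the groups with high Lmnb1. The summed level of 12 proliferation genes was 480 to 892 CPM in sham skin and 396 to 682 CPM in radiated skin of week 3, against 217 to 446 CPM in its control. At week 4 it was 659.6 to 811 against 278 to 592 CPM. Of these 12 genes, 6 rose and 0 fell at week 3, and 10 rose and 0 fell at week 4, where the median log2 fold change was 0.88. Mcm5, a subunit of the replicative helicase, rose by 1.41 (SE 0.122, adjusted p = 1.66e-05), and Aurkb, a mitotic kinase, by 1.31. Over the 35 libraries the log2 level of Lmnb1 had a Pearson r of 0.78 with Top2a and 0.73 with Mki67, both genes of dividing cells. These libraries include the same groups and mice, so the coefficients are descriptions. Among 10 other genes of the lamina and its chromatin partners, 0 rose at either week, and 3 fell at week 3 and 4 at week 4, where 13.6% and 24.2% of all genes fell. Sun1 and Sun2, which tie the lamina to the cytoskeleton, fell by 0.92 (SE 0.105) and 0.94 (SE 0.150) at week 4, and Lmna, which encodes the A-type lamins, fell by 0.68 at week 3 (adjusted p = 0.0177). Ppp1r3b (r = 0.93), Smchd1 (0.88) and Rnf149 (0.87) had the patterns most like that of Lmnb1 over the 35 libraries.

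**Figure D2:**
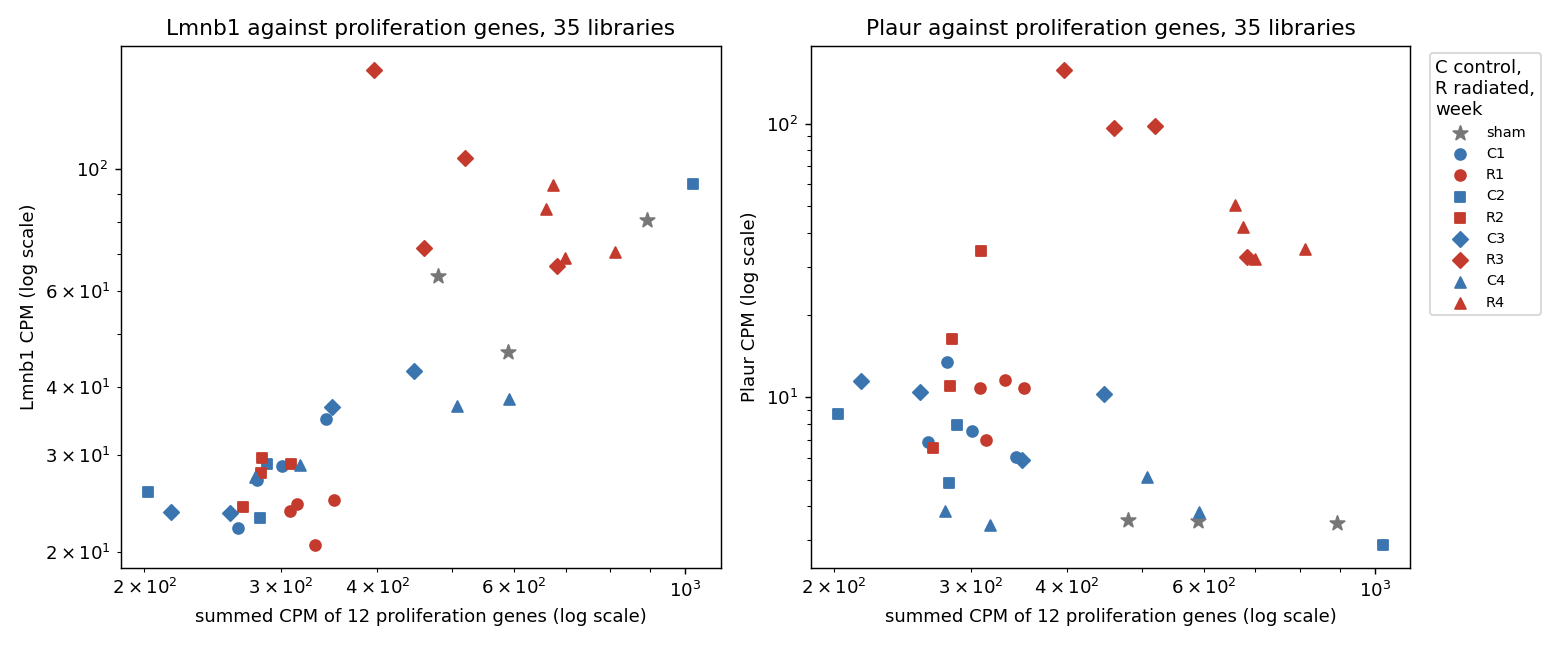
Each point is 1 of 35 libraries, with the summed CPM of 12 proliferation genes on the horizontal axis and the CPM of Lmnb1 (left) or Plaur (right) on the vertical axis, all on log scales. Lmnb1 is high in sham skin, in radiated skin of weeks 3 and 4 and in the control library of week 2 at 1024 CPM of proliferation genes, while Plaur is high in radiated skin only.

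Il6, Plaur and Gdf15 are secreted or cell surface products of senescent cells. Il6 (ENSMUSG00000025746, chromosome 5, 30013114 to 30019981, plus strand) encodes interleukin 6. Its level in radiated skin of week 4 was 9.78, 13.7, 12.2 and 34.9 CPM, against 0.159, 0.133, 0.384 and 0.154 CPM in control skin. At week 3 it was 42.8, 47.9, 12.6 and 8.34 against 1.58, 0.246, 1.86 and 1.66 CPM. No radiated library of these weeks overlapped its controls. The rise was 4.43 at week 3 (SE 0.732, adjusted p = 0.00325) and 6.37 at week 4 (SE 0.561, adjusted p = 1.86e-05). The ratio of means was 20.9 at week 3 and 85.0 at week 4, where the control mean was also lower, 0.207 ± 0.119 CPM (SD, n = 4) against 1.33 ± 0.735 at week 3.

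The earlier weeks were scattered. At week 2 radiated skin ranged from 0.177 to 13.3 CPM and control skin from 0 to 3.23 CPM (log2 1.81, SE 1.28, adjusted p = 0.561), and leaving out 1 library gave 0.57, without radiated replicate 3, to 2.59, without control replicate 4. At week 1 the highest library of the comparison was a control at 8.88 CPM, and radiated skin had 0.427 to 2.10 CPM (log2 -1.47, SE 0.778, adjusted p = 0.409). Without that control, replicate 3 of week 1, the difference was -0.15. Sham skin had 0.0883, 0.347 and 0.0516 CPM, the lowest mean of the 9 groups. Its neighbour in the order was control skin of week 4, and those 2 groups differed by less than their SDs.

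Plaur (ENSMUSG00000046223, chromosome 7, 24462484 to 24475968, plus strand) encodes the receptor that focuses urokinase on the cell surface. It had 157.6, 98.3, 96.6 and 32.5 CPM in radiated skin of week 3 and 11.4, 5.90, 10.5 and 10.3 CPM in control skin. At week 4 it had 41.8, 32.0, 34.8 and 50.5 against 3.81, 5.13, 3.42 and 3.84 CPM. The groups were far apart in both weeks. Plaur rose by 3.37 at week 3 (SE 0.444, adjusted p = 0.00164) and by 3.30 at week 4 (SE 0.190, adjusted p = 2.87e-06). At week 2 radiated skin had 6.55, 11.0, 34.3 and 16.3 CPM and control skin 2.90, 4.86, 7.90 and 8.71 CPM, so that only 1 radiated library lay within the control range. That difference of 1.48 (SE 0.509) had an adjusted p of 0.240, and without radiated replicate 3, at 34.3 CPM, it was 0.88. With the mouse as a block it was 1.35 with an adjusted p of 0.0276, in a fit that called 3.7% of genes.

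Sham skin had 3.53, 3.55 and 3.46 CPM of Plaur, which were close together. Against sham skin Plaur rose in radiated skin of all 4 weeks, by 1.504 (adjusted p = 0.0252), 2.28 (0.0428), 4.82 (0.00462) and 3.54 (9.04e-05). Control skin was above sham skin by 1.26 at week 1 (adjusted p = 0.0495) and 1.42 at week 3 (adjusted p = 0.0169), by 0.78 at week 2 (adjusted p = 0.273) and by 0.19 at week 4 (adjusted p = 0.626). Of these 6 calls, those for radiated skin of weeks 3 and 4 held without any 1 library. The calls for weeks 1 and 2 of radiated skin and week 1 of control skin were lost without sham replicate 3, with adjusted p of 0.121, 0.175 and 0.137, and without several other libraries, where adjusted p ran from 0.0550 to 0.132. The week 3 control call was lost without sham replicate 2 (0.0524) or 3 (0.0533).

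Gdf15 (ENSMUSG00000038508, chromosome 8, 70629393 to 70632456, minus strand) encodes a stress-induced hormone of the TGF-beta family. It was near the floor in control and sham skin. Radiated skin of week 4 had 0.640, 0.815, 1.42 and 0.402 CPM, against 0.0529, 0.442, 0.0427 and 0 CPM in control skin, so the lowest radiated value lay just under the highest control. At week 3 the values were 0.640, 0.980, 4.53 and 0.138 against 0.0450, 0.0819, 0.511 and 0.457 CPM. Gdf15 passed the count filter against control skin at week 3 only, where the difference was 2.58 (SE 1.04, adjusted p = 0.0927). Without radiated replicate 3 of week 3, the library at 4.53 CPM, it was 1.14 (adjusted p = 0.369). Leaving out radiated replicate 4 of that week gave an adjusted p of 0.0398, and DESeq2 gave 0.0486.

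Summed counts of Gdf15 were 56 against 13 at week 1, 56 against 15 at week 2, 157 against 22 at week 3 and 79 against 12 at week 4. These sums rested on single libraries: radiated replicate 3 held 44 of the 56 counts of week 2, where the level was higher in 2 pairs and lower in 2, and 119 of the 157 of week 3, and control replicate 2 held 10 of the 12 control counts of week 4. The week 4 ratio of rates, which that control library largely sets, was 6.27 (95% interval 3.40 to 12.6, counting error only). The unfiltered edgeR fit gave 2.57 (SE 0.876, adjusted p = 0.0425) for that week. In the week 4 comparison with sham skin, Gdf15 passed the filter only through its radiated libraries, at 15, 21, 34 and 9 counts. Against sham skin, where 2 of 3 libraries had 0 counts, Gdf15 rose by 3.39 at week 4 (adjusted p = 0.0340). That value rests on 5 counts in sham replicate 1: without it the fitted value was 7.26, which is set by the prior count and is no bound. The call was lost without sham replicate 2 (adjusted p = 0.0914) or 3 (0.0835).

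Other secreted factors of the senescence literature moved the same way as Il6 and Plaur. Of 28 such genes, 27 passed the filter at each of weeks 3 and 4. At week 3, 22 rose and 0 fell, with a median log2 fold change of 1.76 against 0.08 over all genes. At week 4, 23 rose and 0 fell, with a median of 2.57 against 0.02. Mmp10 and Mmp13, metalloproteinases that digest matrix, had 13.8 to 30.2 and 47.6 to 64.2 CPM in radiated skin of week 4, against at most 0.0442 and 0.171 CPM in control skin. Il1b, a cytokine of myeloid cells, rose by 4.69 (adjusted p = 1.8e-05) and Cxcl1, a neutrophil chemokine, by 3.60 at week 4; these 2 were chosen after their values were seen.

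In the interleukin 6 family, 3 of 10 genes rose and 1 fell at week 3, and 7 rose and 1 fell at week 4, where 27.2% and 48.4% of all genes were called. Osm, which encodes the related cytokine oncostatin M, rose by 4.85 at week 3 and 3.59 at week 4, and Il11 by 3.09 at week 4. The gene that fell in both weeks was Il6ra, the interleukin 6 receptor subunit, by 1.04 and 1.44 (adjusted p = 0.00239 and 5.25e-06). Around Plaur, 3 of the 7 genes of the urokinase system that were tested rose at week 3 and 5 at week 4, and 0 fell.

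Markers of neutrophils, macrophages, mast cells and wounded epidermis rose in the same weeks, and those of T cells did not. All 6 neutrophil genes rose at weeks 3 and 4, and their summed level was 101 to 814 CPM in radiated skin of week 3 against 9.34 to 14.6, and 210.04 to 446 against 10.5 to 14.7 CPM at week 4. The 6 macrophage genes, of which 3 rose at week 3 and 6 at week 4, summed to 826 to 1961 against 311 to 917 CPM at week 3, with overlap, and to 1099 to 1604 against 182 to 281 CPM at week 4. The 4 keratins of wounded epidermis all rose in both weeks and summed to 4516 to 14962 against 707 to 850.2 CPM at week 3 and to 10049 to 13397 against 494 to 553 CPM at week 4. The 4 mast cell genes rose in both weeks, with sums of 37.8 to 79.4 CPM against 17.0 to 26.7 CPM at week 3 and 76.2 to 105.4 against 29.5 to 34.1 CPM at week 4. Of 5 T cell genes, 0 rose in either week and 1 fell at week 4, with sums of 23.6 to 59.2 against 27.9 to 59.7 CPM at week 3 and 21.1 to 27.4 against 32.6 to 35.7 CPM at week 4, lower without overlap. S100a8, Retnlg and Mmp8 of the neutrophil list were at 0 in 3, 9 and 4 of the 35 libraries. Over all libraries Il6 had a Pearson r of 0.72 with S100a8 and 0.73 with Krt6a, and Plaur of 0.81 and 0.79. The fibroblast gene Pdgfra had an r of 0.72 with Il6 and 0.79 with Plaur. Nearest in pattern to Plaur were Adam8 (r = 0.97), Hdc (0.97) and Srgn (0.96), and nearest to Il6 was Plaur itself (0.92). The part of these cells in the Il6 and Plaur values was not tested.

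The insulin-like growth factor binding proteins split in 3 ways. Igfbp7 (ENSMUSG00000036256, chromosome 5, 77349240 to 77408041, minus strand), a secreted protein of vessels and matrix, had 158.8, 112.4, 318 and 103.6 CPM in radiated skin of week 3 against 46.1, 72.5, 59.3 and 65.0 CPM. At week 4 it had 203.8, 205.4, 240.1 and 212.9 against 61.9, 42.3, 34.0 and 55.4 CPM. Both weeks were without overlap. It rose by 1.54 (SE 0.348, adjusted p = 0.0114) and 2.16 (SE 0.178, adjusted p = 1.31e-05). Against sham skin, at 42.2, 72.0 and 44.9 CPM, it rose by 1.75 at week 3 (adjusted p = 0.0261) and 2.07 at week 4 (adjusted p = 0.000431). The week 3 call against sham skin was lost without sham replicate 1, 2 or 3 (adjusted p = 0.0827, 0.0548 and 0.0892).

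Igfbp3 (ENSMUSG00000020427, chromosome 11, 7206086 to 7213923, minus strand), the main carrier of insulin-like growth factor in blood, went down. Radiated skin of week 3 had 77.2, 71.5, 77.8 and 48.3 CPM, and control skin 222, 233, 222.5 and 242 CPM. At week 4 the values were 121.5, 108.6, 71.5 and 89.6 against 171.5, 206, 205.5 and 201.5 CPM. Igfbp3 fell by 1.71 at week 3 (SE 0.169, adjusted p = 0.000731) and by 1.00 at week 4 (SE 0.155, adjusted p = 0.000548). At week 1 it was below control skin in every pair, at 148.7, 52.2, 147.8 and 102.3 against 161.7, 227, 207 and 166 CPM, but did not pass the test (log2 -0.75, adjusted p = 0.287). At week 2 it was higher in 2 pairs and lower in 2, at 54.9 to 253 against 122 to 236 CPM, with overlap.

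Sham skin had 151.1, 140.1 and 86.1 CPM of Igfbp3, with a mean between those of control and radiated skin of weeks 3 and 4. Control skin of week 3 was above it by 0.86 (adjusted p = 0.0244), while radiated skin differed from it by -0.83 at week 3 (adjusted p = 0.0537) and by -0.32 at week 4 (adjusted p = 0.360). The control call was lost without control replicate 1, 2 or 3 of week 3 (adjusted p = 0.0504, 0.0604 and 0.0559) or without sham replicate 2 (0.0546). Summed skeletal muscle genes were also higher in control skin of week 3 than in sham skin, at 14370 to 29081 against 5817 to 12559 CPM. The part of muscle in this Igfbp3 difference was not tested.

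Igfbp5 (ENSMUSG00000026185, chromosome 1, 72857932 to 72874884, minus strand), a matrix-bound binding protein, differed in neither week by the test. It had 848, 783, 951 and 1023 CPM in radiated skin of week 4 against 794, 805, 537 and 439.97 CPM. The 2 groups overlapped, and the difference was 0.49 (SE 0.192, adjusted p = 0.0570). Leaving out control replicate 1 or 2 of week 4 gave adjusted p of 0.0260 and 0.0332, DESeq2 gave 0.0433 and total-count scaling 0.0411, while the highest over the 14 alternatives was 0.267. At week 3 the difference was 0.30 (SE 0.353, adjusted p = 0.555). Its highest mean, 1249.7 ± 180.2 CPM (SD, n = 4), was in control skin of week 1, and its lowest, 523 ± 239.8 CPM (n = 3), in sham skin.

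Of 13 other tested genes of this axis, 2 rose and 3 fell at week 3, and 4 rose and 5 fell at week 4, where 13.6% and then 24.2% of all genes were called in each direction. Pappa, a protease that frees the growth factor from its binding proteins, rose by 2.05 at week 4 (SE 0.174, adjusted p = 1.5e-05), and Igf2r, which carries Igf2 to the lysosome, by 1.40. Igfbp6 fell by 1.69 (SE 0.228, adjusted p = 0.000233) and Irs1, an adaptor of the receptor, by 1.67. Summed fibroblast genes were 22863 to 36550.3 CPM in radiated skin of week 4 against 1660.4 to 3632 CPM, with all 6 genes higher. At week 3 the sums were 9332 to 17564 against 1609 to 8860 CPM, also without overlap. Igfbp7 was closest in pattern to Fkbp10 (r = 0.96), Hspg2 (0.96) and Col4a2 (0.95), Igfbp3 to Paip1 (0.89), Atp5c1 (0.88) and Setd2 (0.88), and Igfbp5 to Adamtsl3 (0.78), Ptprm (0.77) and Sav1 (0.77). Summed endothelial genes were 402 to 516 CPM in radiated skin of week 4 against 202 to 308 CPM, with 4 of 5 genes higher, and 212 to 465 against 204 to 245 CPM at week 3, with 1 of 5 higher. The part of fibroblasts and vessels in the Igfbp7 values was not tested.

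Markers of other tissue layers also differed. Skeletal muscle genes summed to 2462 to 7328 CPM in radiated skin of week 3 against 14370 to 29081 CPM in control skin, without overlap, and to 879 to 2064 against 1130 to 17304 CPM at week 4, with overlap. This difference was not new at week 3. The sums were 6696 to 19331 against 22118 to 34856 CPM at week 1 and 8351 to 17117 against 24269 to 43141 CPM at week 2, both without overlap. Upper-layer keratinocyte genes summed to 290.3 to 9967 against 7137 to 9804 CPM at week 3, with overlap, and to 844 to 4759 against 11396 to 12700.4 CPM at week 4, without. Igfbp3 fell in both weeks and Cdkn2b at week 4. What part muscle or upper epidermis had in their fall was not tested.

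Glb1 (ENSMUSG00000045594, chromosome 9, 114401076 to 114474898, plus strand) encodes the lysosomal galactosidase behind the senescence stain. It had 11.6, 10.3, 9.51 and 9.68 CPM in radiated skin of week 4, and 7.83, 7.34, 7.35 and 6.88 CPM in control skin. These groups did not overlap, although the ratio of means was only 1.40. The rise was 0.49 (SE 0.121, adjusted p = 0.00802). In a single fit of all 35 libraries it was 0.48 with an adjusted p of 0.178. At week 3 radiated skin had 9.74, 6.16, 20.5 and 7.74 CPM against 7.74, 8.68, 9.39 and 6.22, and the difference of 0.49 (SE 0.361) had an adjusted p of 0.336. The week 3 value rested on radiated replicate 3, at 20.5 CPM, without which the difference was near 0 (adjusted p = 0.999). That library had also the highest Gdf15 and Igfbp7 of its group, at 4.53 and 318 CPM. Against sham skin, at 5.78, 8.19 and 5.32 CPM, Glb1 rose by 0.71 at week 4 (adjusted p = 0.0338), a call lost without radiated replicate 1, 2 or 4 of week 4 or sham replicate 1 or 3 (adjusted p from 0.0656 to 0.0945).

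Before week 3, Igfbp7, Igfbp5 and Glb1 overlapped between radiated and control skin. At week 1 radiated skin had 33.0 to 106 CPM of Igfbp7 against 69.0 to 111 CPM, 368 to 1265 CPM of Igfbp5 against 1044 to 1457 CPM, and 5.88 to 11.9 CPM of Glb1 against 7.86 to 11.8 CPM. Their week 1 differences were -0.25, -0.41 and -0.01, and their week 2 differences 0.35, 0.04 and 0.41, none called by edgeR. Leaving out 1 library gave Igfbp7 -0.46 to -0.004 and Igfbp5 -0.60 to -0.15 at week 1. At week 2 it gave Igfbp7 0.11 to 0.50 and Glb1 0.26 to 0.56.

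Of 17 other lysosomal genes, 10 rose and 0 fell at week 3, and 12 rose and 0 fell at week 4, with medians of 0.92 and 0.87. Gusb, another glycosidase, rose by 2.03 at week 4 (SE 0.119, adjusted p = 3.15e-06), with 49.9 to 63.4 CPM against 12.2 to 15.5 CPM. Ctsb, the protease cathepsin B, rose by 1.93. The macrophage genes were also higher in these libraries, at 1099 to 1604 CPM against 182 to 281 CPM at week 4, and the log2 level of Glb1 had an r of 0.69 with the macrophage gene Adgre1 over the 35 libraries. The part of macrophages in the Glb1 and lysosomal values was not tested. Glb1 was closest in pattern to Clip3 (r = 0.86), Asap1 (0.85) and Slit3 (0.85).

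Counted together, 0 of the 8 genes tested at week 1 were called against control skin, as were 0 of all genes (percent called 0). Without radiated replicate 1 of that week 232 of 17845 genes were called, and still 0 of the senescence genes. In the main fit 1 of the 8, and 2477 of all 17578 genes, had an unadjusted p under 0.05. DESeq2 called 0 of the 10 and 359 of 25106 genes in all. At week 2, 0 of 8 were called, and the share over all genes in edgeR was 0.00577%. An unadjusted p under 0.05 was found for 1 of the 8 and for 2388 of all 17345 genes. DESeq2 called 0 (and 604 of 25096 genes in all). Without radiated replicate 2 of week 2, edgeR called 206 of 17705 genes, and still 0 of the senescence genes. At week 3, 5 of 9 were called where 27.2% of all genes were, 4 higher (13.6% of genes) and 1 lower (13.6%). Total-count scaling turned the split over all genes at that week from 2408 higher and 2397 lower to 4054 higher and 1270 lower, and it called the same 5 of the 10. At week 4, 7 of 8 were called where 48.4% of all genes were, 5 higher (24.2%) and 2 lower (24.2%). With the mouse as a block, 5 and 6 of the genes were called at weeks 3 and 4, where 21.1% and 42.7% of all genes were. Groups did not overlap for 1, 0, 5 and 7 of the 10 genes at weeks 1 to 4, where the shares over 19813 genes were 7.98%, 6.42%, 29.3% and 42.7%.

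**Figure D3:**
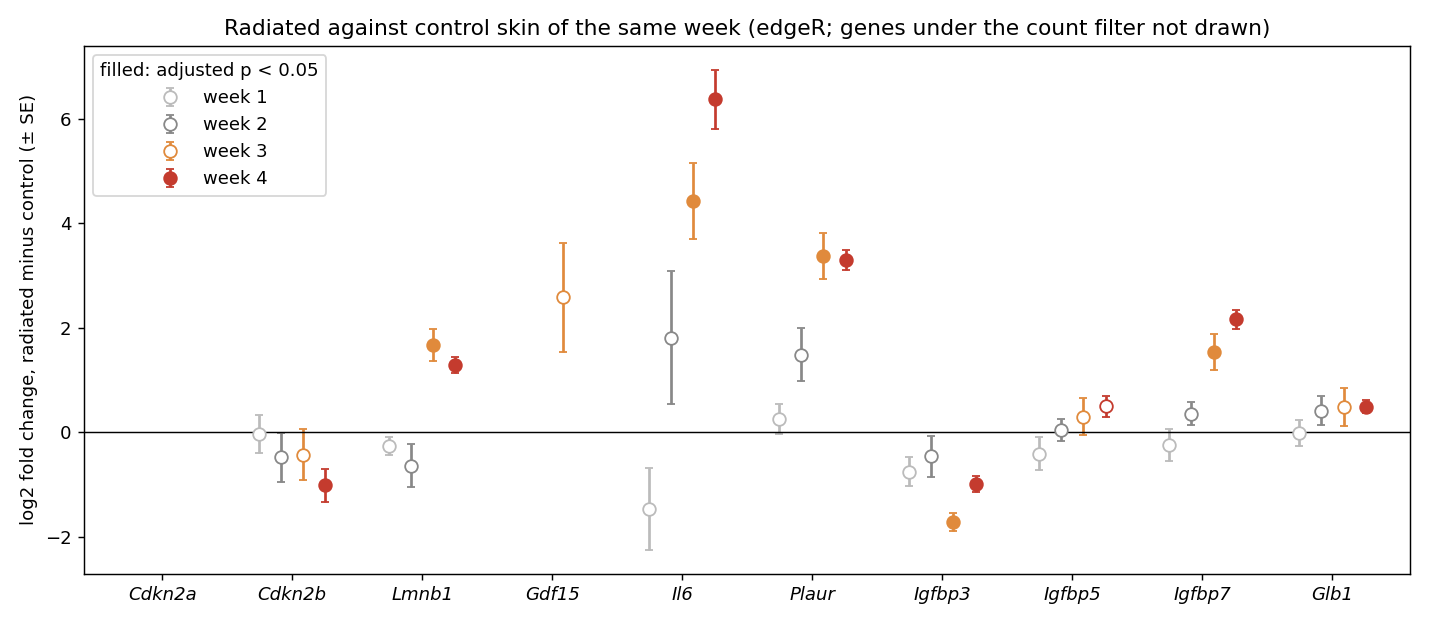
Log2 fold change of each gene in radiated against control skin of the same week (vertical axis, bars ± SE), in 1 colour per week, with filled symbols where the edgeR adjusted p is under 0.05. No symbol is filled at weeks 1 and 2; at week 4 Il6 reaches 6.37, while Cdkn2b and Igfbp3 lie near -1.

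Against sham skin, radiated skin had 2, 2, 3 and 5 called genes at weeks 1 to 4, where 1.75%, 5.06%, 18.2% and 26.7% of genes were called. The 5 of week 4 include Il6 and Gdf15, with at most 8 and 5 counts per sham library, which passed the filter through their radiated libraries. Of all genes, 0.543%, 2.16%, 10.4% and 15.2% were called higher and 1.21%, 2.9%, 7.75% and 11.5% lower. Il6 rose by 7.38 at week 3 (adjusted p = 0.00510) and 6.72 at week 4 (adjusted p = 0.000567), or by 8.58 and 7.90 without sham replicate 2, which held 8 of the 11 sham counts. Il6 was above sham skin by 2.73 in radiated skin of week 1 (adjusted p = 0.138) and 4.84 at week 2 (0.0656), and by 4.19 and 2.94 in control skin of weeks 1 (0.0635) and 3 (0.0577). DESeq2 called these 4 differences, with adjusted p of 0.0406, 0.00669, 0.000246 and 0.00850. Some edgeR alternatives called Il6 too. For radiated skin of week 2 these were no filter (0.0409), 1 fit of all libraries (0.0147) and leaving out radiated replicate 1 (0.0187). For control skin they were no filter at week 1 (0.0445) and leaving out control replicate 2 at week 3 (0.0377). Where the gene could be tested after leaving out 1 library, the 4 differences ran from 2.35 to 3.89 and 4.47 to 6.00 in radiated skin and from 2.88 to 5.35 and 2.57 to 4.10 in control skin, with edgeR adjusted p of up to 0.365, 0.236, 0.184 and 0.162. The highest values were those without sham replicate 2, and the lowest those without sham replicate 3, or, for control skin of week 1, without its replicate 3. Control skin against sham skin had 2, 0, 3 and 1 called genes, with 4.92%, 2.44%, 11.4% and 3.65% of genes called, of which 3.28%, 1.37%, 5.18% and 1.76% were higher and 1.65%, 1.06%, 6.19% and 1.9% lower. At week 2 of that comparison 0 of the 7 senescence genes tested by edgeR had an unadjusted p under 0.05, where 3765 of all 17855 genes did, and DESeq2 called 0 of the senescence genes. The shares against sham skin themselves rested on single libraries. In control skin of weeks 1, 2 and 4 the number of called genes went from 881, 435 and 655 to 0, without sham replicate 2 or 3 at week 1, sham replicate 3 or control replicate 4 at week 2, and control replicate 4 at week 4. In control skin of week 3 it went from 2036 to 629 without sham replicate 3, and in radiated skin from 319 to 1 at week 1 without radiated replicate 3, from 912 to 107 at week 2 without sham replicate 3 and from 3308 to 1134 at week 3 without sham replicate 2. These comparisons share the sham libraries, and the radiated and control samples were taken as coming from the same mice.

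A model of the 32 radiated and control libraries tested whether the radiated-minus-control difference changed among the 4 weeks. It passed for 4 of 9 genes, where 15.6% of all genes passed, and for the same 4 with the mouse as a block, where 15.8% did. They were Plaur (adjusted p = 0.000797), Igfbp7 (0.000869), Lmnb1 (0.000874) and Il6 (0.00327). For Igfbp3 (0.150), Igfbp5 (0.391), Cdkn2b (0.679), Glb1 (0.686) and Gdf15 (0.972) no change over time was shown. Among the steps from week to week, the one from week 2 to week 3 was called for Lmnb1, at 2.31 (SE 0.453, adjusted p = 0.00370), and Plaur, at 1.88 (SE 0.584, adjusted p = 0.0483), where 6.9% of genes were called. Both calls were lost without replicate 1 (adjusted p = 0.0597 and 0.162) or replicate 3 (0.0531 and 0.0769) of each group, and that of Plaur also without replicate 2 or 4 (0.245 and 0.0874). Without replicate 1, which holds the control library with 94.1 CPM, the Lmnb1 step was 1.10. The steps from week 1 to 2 and from week 3 to 4 had 0 called genes of the 10, with 2 and 0 at an unadjusted p under 0.05 in edgeR and with 0% and 0.419% of all genes called. Of all 19338 genes, 1296 and 2684 had an unadjusted p under 0.05 at these steps.

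Whether the signs occurred together was read in each mouse, from the radiated and control samples of 1 week and number that were taken as 1 mouse. Il6 and Plaur were both higher in the radiated sample of 14 of 16 mice, in 2, 4, 4 and 4 mice at weeks 1 to 4. Lmnb1 was lower in 4 mice, 3 of them at week 1 and 1 at week 2. In 12 mice Il6, Plaur and Lmnb1 were all higher, with any difference counted; in 1 of them, of week 2, Lmnb1 was at 28.94 against 28.91 CPM. Cdkn2a was higher in 9 mice and Cdkn2b in 4, and both in 2. Of the 9, the radiated sample held more than 3 Cdkn2a counts in 4, and in 1 both samples held the same count and differed only by library scaling. All 4 of Gdf15, Il6, Plaur and Igfbp7 were higher in 8 mice, of which 4 were of week 4. Cdkn2b was higher and Lmnb1 lower in 1 mouse, of week 1. With Cdkn2a at 3 or fewer counts in 28 libraries, its sign in a mouse is mostly undetermined, so no tally of all the signs together is given.

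Over the 35 libraries the log2 levels of Il6 and Plaur had a Pearson r of 0.92, Plaur and Igfbp7 of 0.78, and Gdf15 and Plaur of 0.70. The Ink4 genes had an r of -0.24 with each other. Cdkn2a held 3 or fewer counts in 28 of these libraries, so its correlations, also those with its nearest genes, say little. Lmnb1 had an r of 0.52 with Plaur and of -0.48 with Cdkn2b. The libraries share groups, mice and cell composition, so these values only describe how the 10 genes lay beside one another. Cdkn2b was closest to Angel1 (r = 0.84), Rxra (0.84) and Pou3f1 (0.83), Gdf15 to Arl8a (0.80), Csf2ra (0.80) and Limk1 (0.80), and Cdkn2a to Fam167a (0.66) and Actn1 (0.64).

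**Figure D4:**
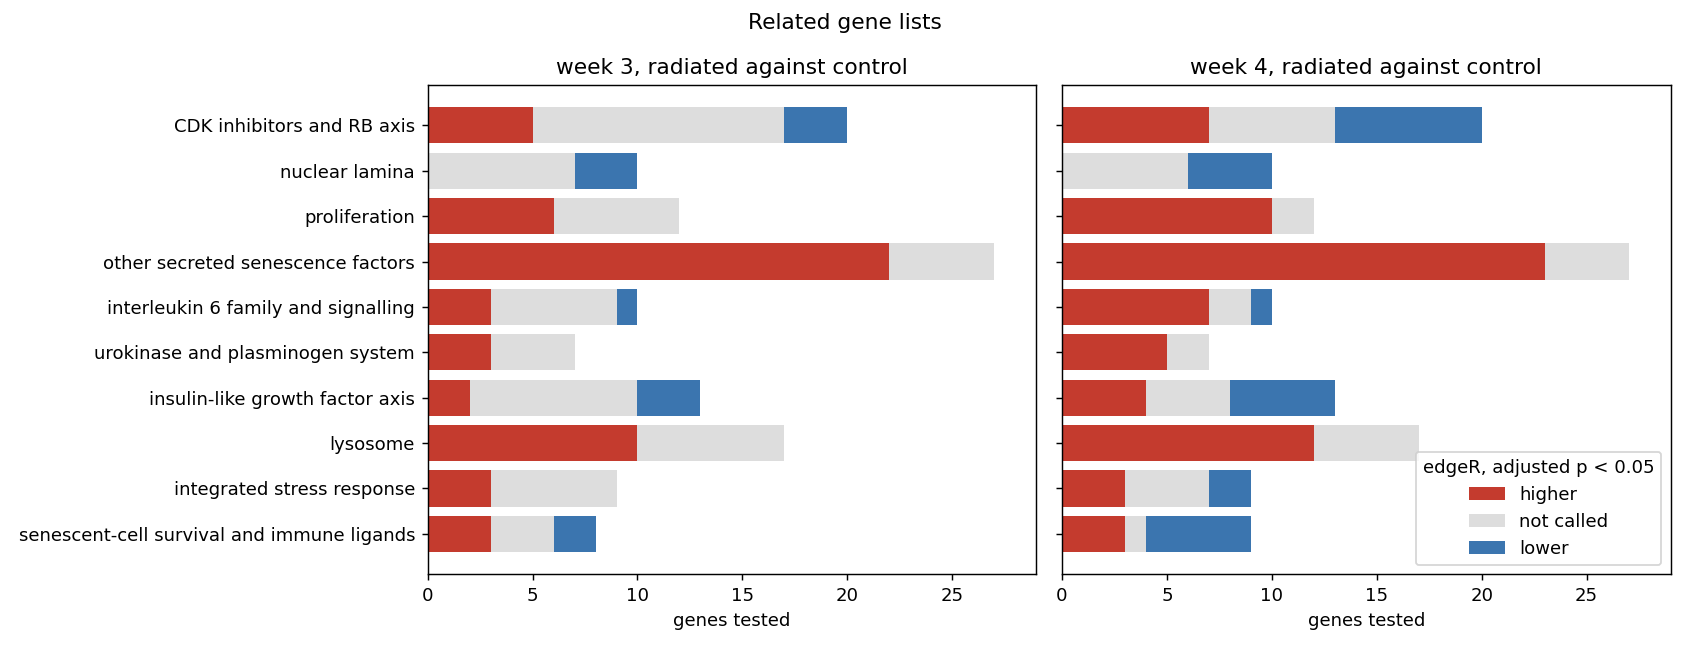
Bars give the number of tested genes in each of 10 related lists that were higher, lower or not called (horizontal axis) in radiated against control skin at week 3 (left) and week 4 (right). Of the other secreted factors 22 and 23 of 27 were higher, and no lamina gene was higher.

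In the integrated stress response, which induces Gdf15 among other genes, 3 of 9 genes rose and 0 fell at week 3, and 3 rose and 2 fell at week 4, where 27.2% and 48.4% of all genes were called. Atf3, a stress-induced transcription factor, fell by 3.96 at week 4 (SE 0.406, adjusted p = 4.57e-05), and Asns, the asparagine synthetase, rose by 1.19. Of the survival genes and immune ligands of senescent cells, 3 of 8 rose and 2 fell at week 3, and 3 of 9 rose and 5 fell at week 4. Ulbp1, a ligand of the NKG2D receptor, rose by 1.49 and 1.61, and Bcl2, a guard against apoptosis, fell by 0.55 and 0.75 (adjusted p = 0.0374 and 0.000397).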

How the data were processed

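RNA of 35 mouse skin samples had been read with Trim Galore 0.6.7 and kallisto 0.46.2 on mm10, per the submitters' processing notes. The authors deposited estimated counts per gene, and the strand setting is not given in the sources used here. Estimated counts were rounded to whole numbers. Each comparison was fitted on its own groups with edgeR 4.0.16 (TMM scaling, filterByExpr, quasi-likelihood F test) in R 4.3.3, with Benjamini-Hochberg adjustment over all genes tested. Alternatives were other scalings, no filter, DESeq2 1.42.0, 1 fit of all libraries, a replicate block and leaving out each library. The fit was also run on simulated data, and the outcome is not given here. Levels are CPM, and log2 CPM used a prior count of 2.

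Members and gene lists were chosen with earlier results of these data known. Related genes were named as the 2 with the largest significant change in each direction per list at week 3 and at week 4, and likeness by the 3 highest correlations among genes of at least 1 CPM. Not every gene these rules pick is reported here.

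Radiated and control samples with 1 number were taken as 1 mouse, from 35 samples of 19 mice. The mean correlation of their deviations from group means was 0.07, 0.17, 0.05 and -0.02 at weeks 1 to 4. Between samples of different numbers it was -0.02, -0.06, -0.02 and 0.007, so at week 4 these correlations do not show the pairing. Positions are from GENCODE M21 on GRCm38, and promoters from RefSeq on GRCm38.p6.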

Additional observations from a re-analysis of the deposited data

Results flagged for a closer look

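Of 80 groups of 4 libraries, 10 had 1 library far from the other 3. The rule used gives about 1 in 20 where values are normally distributed, which CPM values need not be. For Cdkn2a the flagged libraries were control replicate 1 of week 2 (0.0950 CPM), radiated replicate 2 of week 3 (0.140 CPM) and control replicate 2 of week 4 (0.0885 CPM), which are 2, 3 and 2 counts beside libraries at 0. A group with 3 libraries at 0 and 1 above it is always flagged, so these Cdkn2a flags carry no weight. Lmnb1 was at 94.1 CPM in control replicate 1 of week 2, with the others at 23.1 to 28.9 CPM. Gdf15 was at 1.99 CPM in radiated replicate 3 of week 2 and at 0.442 CPM in control replicate 2 of week 4. Il6 was at 34.9 CPM in radiated replicate 4 of week 4 and at 0.384 CPM in control replicate 3 of that week. Plaur was low in radiated replicate 1 of week 1, at 6.96 CPM, and Igfbp3 was low in control replicate 1 of week 4, at 171.5 CPM.

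The radiated-minus-control difference changed over the 4 weeks in edgeR's test of the interaction for Plaur (adjusted p = 0.000797), Igfbp7 (0.000869), Lmnb1 (0.000874) and Il6 (0.00327).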

How the results depend on the processing

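Il6, Plaur, Lmnb1, Igfbp7 and Igfbp3 kept their direction and stayed called against control skin at weeks 3 and 4 in all 14 alternatives run, with ranges at week 4 of 5.80 to 6.84, 3.17 to 3.46, 1.19 to 1.39, 2.02 to 2.33 and -1.12 to -0.86. The number of the 10 genes called at week 2 against control skin went from 0 to 1 with 1 fit of all 35 libraries and to 1 with the replicate block, and the gene was Plaur. The block lowered the week 4 number from 7 to 6, through Cdkn2b. Against sham skin, whose numbers belong to other mice, the block gave 0, 1 and 3 called genes in radiated skin of weeks 1, 2 and 4, and 0, 0 and 0 in control skin of weeks 1, 3 and 4. The fit of all libraries gave 6 and 3 in radiated skin of weeks 3 and 4 and 0 in control skin of week 4. DESeq2 gave 5 in radiated skin of week 3, and 5 and 2 in control skin of weeks 1 and 4. In control skin of week 1, total-count scaling gave 1 and no filter 4. No filter gave 1 for the step from week 2 to 3.

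Leaving out 1 library gave 0 to 0 called genes at weeks 1 and 2 against control skin, 5 to 6 at week 3 and 6 to 8 at week 4. Against sham skin radiated skin had 0 to 2, 0 to 3, 2 to 4 and 3 to 4, and control skin 0 to 2, 0 to 1, 0 to 3 and 0 to 2. The interaction kept 4 to 4, and the step from week 2 to 3 had 0 to 1.

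Some differences that were not called changed sign. At week 1 total-count scaling gave Glb1 0.13 and Cdkn2b 0.13, and leaving out 1 library gave Cdkn2b -0.37 to 0.14 and Glb1 -0.17 to 0.14. At week 2 leaving out 1 library gave Igfbp5 -0.14 to 0.17 and Lmnb1 -0.85 to 0.0852, the last without control replicate 1. At week 3 it gave Igfbp5 -0.0126, without radiated replicate 3, to 0.52. The cause was not tested.

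Total-count scaling moved the median of all genes from 0.08 to 0.32 at week 3, and from 0.05 to 0.18 at week 1. It also changed the split of all called genes against sham skin: in radiated skin of week 2 from 389 higher and 523 lower to 277 and 688, and in control skin of weeks 1, 2 and 3 from 586 and 295 to 361 and 469, from 245 and 190 to 198 and 322, and from 927 and 1109 to 571 and 1951. Depth limits Cdkn2a, at 0 counts in 9 and at 2 or fewer in 14 of the 16 control libraries, and Gdf15, at 0 to 11 counts in them.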
